A study of Mus musculus with 24 samples.

Results

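The lungs described here are those of the 3 transgenic C3H mice, titled TG_C3H, out of 24 mice profiled on whole-transcript arrays. They were set against the 14 other transgenic (TG) mice, with the means of the 5 other strains weighted equally, and the C3H wild-type (WT) lung was set against the 6 other WT lungs to read the same difference without the transgene. TG mice carried an inducible TGF-β1 transgene and had drunk doxycycline, the drug that switches it on, for 2 weeks. The WT mice had drunk it for the same 2 weeks, so doxycycline was common to all groups. C3H, S129 (129), AJ (A/J), AKR (AKR/J) and BC (Balb/cJ) had 3 TG mice and 1 WT mouse each, while C57 (C57BL6/J) had 2 of each genotype. RNA came from the right lobe of freshly harvested lungs. No source used here gives the promoter of the transgene, the number of backcrosses, the litters, or the age and sex of the mice. The series design lists C3H among the fibrosis-resistant strains, whereas the fibrosis code of the C3H samples, read by its own key, gives prone. The C3H samples carry the label nonEmp (no emphysema), as do the 129 samples. No comparison here uses either label.

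TGF-β1 is a secreted cytokine that is released from a latent complex and signals through paired receptor kinases to Smad transcription factors. In the lung it raises collagen and other matrix genes in fibroblasts, and it alters the epithelium and the macrophages. Inbred strains differ in many inherited variants, so a difference between TG mice of different strains can be present without the transgene, can appear with it, or both. The WT comparison is the reading of the first of these. All values are array intensities, and whether inherited variants fall within probe sequences was not examined.

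Gene values are deposited log2 intensities, so a difference of 1 is 2-fold, and differences are given ± SE from limma. A gene was called where its Benjamini-Hochberg adjusted p over all 13499 genes was under 0.05. Array medians ran from 7.759 to 7.835. The 3 TG C3H lungs correlated with each other at 0.9954 to 0.9967 across genes (Pearson's r). Precision is limited by the number of arrays: C3H had 3 TG mice, and its baseline rests on 1 WT mouse, which was assumed to vary like the mice of the other groups. All p-values measure the spread among mice of the same strain and genotype, and not the spread between strains. Groups of 1 WT mouse add nothing to that spread. H2-Ea, the MHC class II α chain that is silent in b-haplotype strains, was 13.28 to 13.48 in TG C3H and 12.95 in WT C3H, against 6.27 to 6.90 in the TG mice labelled S129 and C57. The TG lungs of A/J, AKR/J and Balb/cJ read 13.10 to 13.55. H2-Ea was thus called higher in TG C3H, at 2.76, without C3H standing apart from these strains. Glo1, a glyoxalase gene known to vary in copy number between strains, lay at 10.92 to 10.97 in TG C3H and 10.97 in WT C3H. In 2 other strains Glo1 did not match between genotypes: it was 9.81 to 10.57 in the TG and 11.20 in the WT mouse of A/J, and 11.05 to 11.15 in the TG and 10.36 in the WT mouse of AKR/J. The alveolar type 2 marker list averaged 12.86 to 12.90 in TG C3H, within the 12.56 to 13.20 of the other TG lungs.

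TG C3H lungs differed from the other TG strains in 814 genes (6.03% of those tested), of which 447 were higher (3.31%) and 367 lower (2.72%). The difference was at least 2-fold in 14 higher and 8 lower genes. For 85 higher genes (0.63%) and 80 lower genes (0.593%) the call was joined by a full separation, in which all 3 TG C3H lungs lay outside the range of the 14 other TG lungs. The C3H mean lay beyond all 5 other strain means in 607 of the 814 called genes, with a median gap of 0.13 to the nearest strain. Over all genes it did so in 24.2%, a share that ran from 21.1% (Balb/cJ) to 49.0% (C57BL6/J) when each other strain was taken in turn. The strain nearest to C3H by median absolute difference over all genes was Balb/cJ, with 0.074, and the farthest was C57BL6/J, with 0.111. By the number of genes with a difference over 1, AKR/J was nearest, with 33 against 46 for Balb/cJ. C57BL6/J was again farthest, with 168, and its mean rests on 2 TG mice. Leaving out 1 C3H mouse at a time cut the calls to 221 without mouse 1, 502 without mouse 2 and 326 without mouse 3, and 499 were called without the C57 strain.

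Sfmbt2, which encodes a Polycomb-group protein, had the largest difference of the separated higher genes. It read 8.16, 8.35 and 8.45 in the 3 TG C3H lungs, against a lowest, median and highest value of 6.70, 6.8 and 7.04 in the 14 other TG lungs. All C3H lungs thus stood clear of every other TG lung, at 1.5 ± 0.06 or 2.82-fold (limma adjusted p = 2.3e-10). In WT mice it read 7.97 in C3H and 6.61 to 7.01 in the other 6, a difference of 1.12 without the transgene (limma adjusted p = 4.3e-05). Nme7, a nucleoside diphosphate kinase family gene with roles at microtubules and cilia, read 10.50, 10.57 and 10.03 against 8.79, 8.94 and 9.10. It did not overlap either, was 2.63-fold higher in TG C3H (limma adjusted p = 3.8e-08), and was 9.93 in the WT C3H lung against 8.53 to 8.88 in the others.

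Hbegf, a ligand of the EGF receptor, stood at 11.16, 11.03 and 11.09 in TG C3H against 9.64, 10 and 10.56 in the other TG lungs. The separation was complete, with a difference of 1.12 ± 0.11 (limma adjusted p = 1.2e-05), and the WT C3H lung was as high at 11.22 against 9.63 to 10.08. Ppp1r21 and Masp1, a protease of the lectin pathway of complement, behaved alike. Ppp1r21 was 10.17 to 10.36 in TG C3H and 10.28 in WT C3H, above the 9.34 to 9.67 of the other TG and the 9.49 to 9.62 of the other WT lungs, and its difference was 0.75 in both genotypes. Masp1 was 0.81 ± 0.11 higher in TG and 1.02 higher in WT mice. Sfmbt2, Nme7, Hbegf, Ppp1r21 and Masp1 are the 5 of the 12 largest separated higher genes that were also called in WT mice (0.311% of all genes were called there, 0.17% higher and 0.141% lower).

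The other 7 of those 12 were called between TG mice and not between WT mice, which does not show that the 2 comparisons differ. Dclre1a, a nuclease of DNA crosslink repair, read 9.80, 10.25 and 9.17 in TG C3H against 8.36, 8.53 and 8.78 in the other TG lungs, and 9.29 against 8.38 to 8.66 in WT lungs. The C3H lungs were separated in both genotypes, and C3H mouse 3 lay nearest the other strains. Scel, which encodes the cornified-envelope protein sciellin, read 10.19, 9.84 and 10.08 in TG C3H against 7.51, 8.91 and 9.82 (1.23 ± 0.20, limma adjusted p = 0.0013). Its WT values were high in every strain, 10.42 in C3H and 9.88 to 10.35 in the others, and across the other strains it fell by 1.32 with the transgene. Efhd1, a mitochondrial calcium-binding protein gene, read 8.04, 8.03 and 7.79 against 6.63, 7.0 and 7.55, whereas its WT value in C3H, 7.38, fell inside the 6.83 to 7.77 of the other WT lungs. Dzip1, a gene of cilium assembly, was 0.84 ± 0.07 higher and Nectin3, a cell adhesion gene, 0.61 ± 0.06 higher in TG C3H. The other 2 were Morn4 (0.90) and Tmtc2 (0.73), an endoplasmic reticulum membrane protein gene. The separation was very narrow in Scel, Morn4 and Nectin3. For Morn4 the lowest C3H lung was at 9.14 and the highest other TG lung, of 129, at 9.12. For Nectin3 the corresponding lungs were both at 11.17 after rounding. None of the 12 lost its call when any mouse or any other strain was left out in turn.

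**Figure D1:**
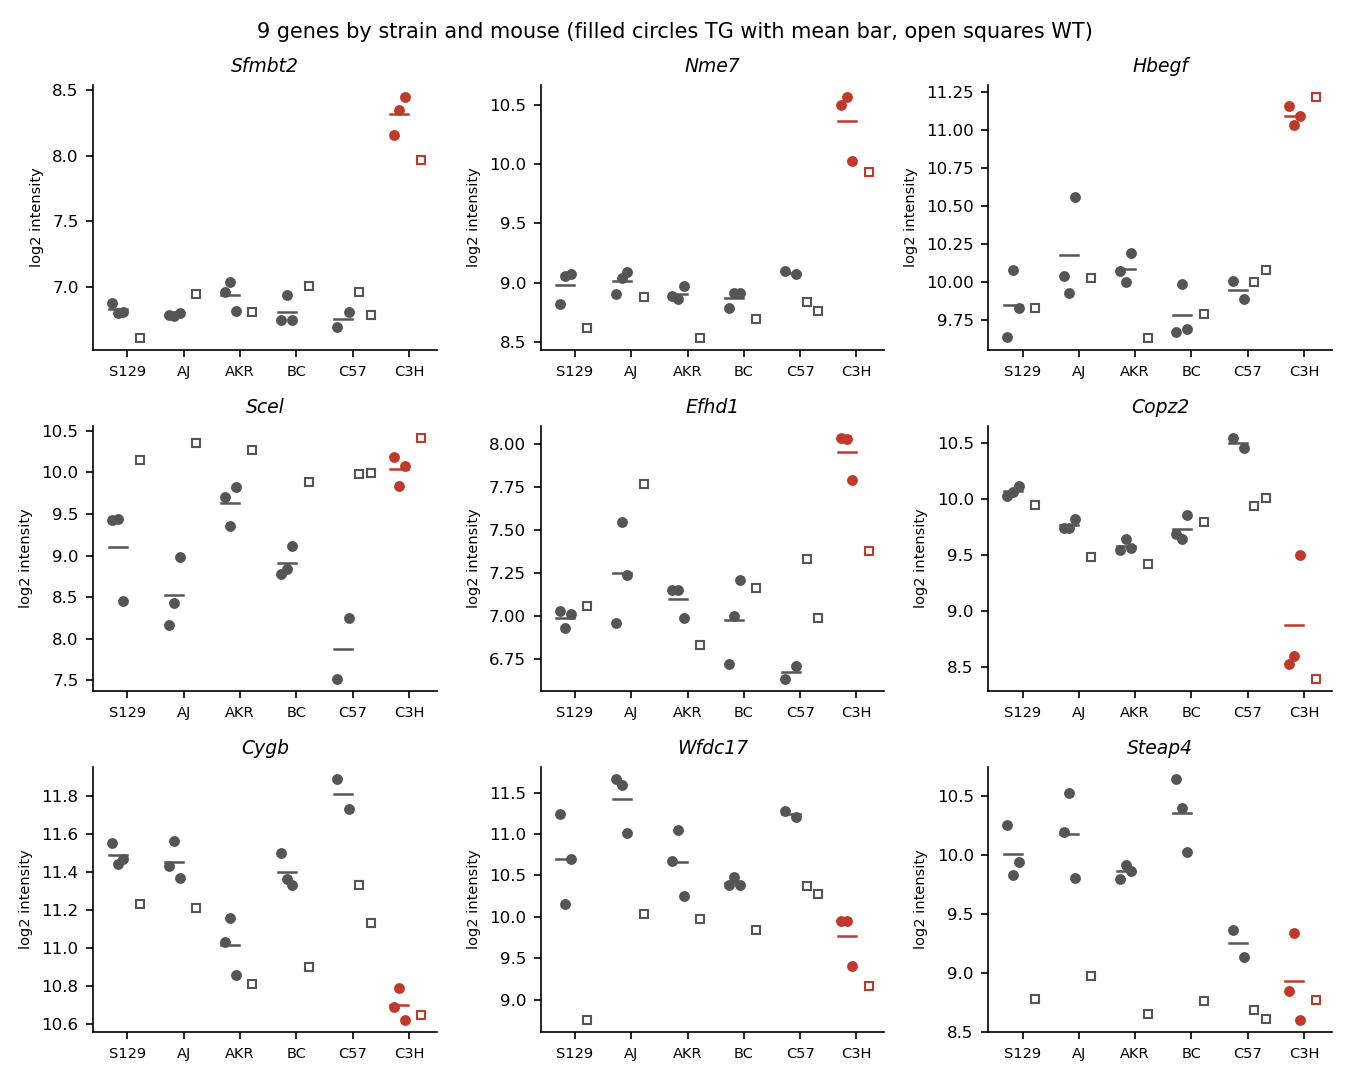
Log2 intensity (vertical axes) of 9 genes in each mouse, by strain label (horizontal axes). Filled circles are TG mice with a bar at their mean, open squares are WT mice, and C3H is red. Sfmbt2, Nme7 and Hbegf are high in C3H lungs of both genotypes and Copz2 is low in both, while Scel, Efhd1, Cygb, Wfdc17 and Steap4 lie within or near the other strains in the WT lung.

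Among the separated lower genes, Wfdc17, a WAP-domain gene expressed by activated macrophages, had the largest difference. It read 9.95, 9.95 and 9.41 in TG C3H, against 10.15, 10.85 and 11.67 in the other TG lungs. The gap to the lowest other mouse was narrow, and the mean difference was -1.12 ± 0.19 (limma adjusted p = 0.0021). The WT C3H value, 9.16, lay within the 8.75 to 10.37 of the other WT lungs. Ly6i, a GPI-anchored surface protein gene, read 6.59, 6.47 and 6.46 against 6.73, 7.5 and 8.67, and was also below all other WT lungs at 6.23 against 6.97 to 8.38.

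Copz2, a subunit of the COPI vesicle coat, read 8.53, 8.60 and 9.5 in the TG C3H lungs, against 9.55, 9.78 and 10.55 in the other TG lungs. C3H mouse 3 was close to the other strains and the other C3H mice were far below them, with a mean difference of -1.06 ± 0.13 (limma adjusted p = 0.00013). The WT C3H lung was at 8.39 against 9.42 to 10.01. Cygb, the haem protein cytoglobin of fibroblasts, read 10.69, 10.79 and 10.62 against 10.86, 11.44 and 11.89, a difference of -0.73 ± 0.07 (limma adjusted p = 7.5e-06). It was 10.65 in the WT C3H lung and 10.81 to 11.33 in the other WT lungs, and the other strains rose with the transgene by 0.36. Sphk1, which makes sphingosine 1-phosphate, read 8.47, 8.57 and 8.55 against 9.0, 9.15 and 9.60 and was also called lower in WT mice, at -0.70 against -0.66 in TG mice. Sphk1 and Cygb lie near each other in the genome, with 3 measured genes between them.

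Gas5, a host transcript of small nucleolar RNAs, and Snord47, a small nucleolar RNA encoded within it, were lower in TG C3H, at -0.67 and -0.60. Both were called in WT mice as well, at -0.49 and -1.39, but the TG call of Snord47 was lost on leaving out any 1 of the 3 C3H mice and its WT call in 10 of the 24 refits that left out 1 mouse or 1 strain. Stard6, a lipid-transfer protein gene, was the fifth of the 12 lower genes with calls in both genotypes, at -0.73 in TG and -0.81 in WT mice. The 5 in all were Copz2, Stard6, Gas5, Sphk1 and Snord47. The ephrin receptor gene Epha7 was at -0.76, Ifi206 at -0.65, the hyaluronan-binding Tnfaip6 at -0.67 and Aspn, a matrix proteoglycan that binds TGF-β, at -0.57. Without C3H mouse 1 the calls of Epha7, Ifi206, Tnfaip6, Aspn and Snord47 were lost. Tnfaip6 lost its call without each C3H mouse, Aspn also without mouse 2 and Ifi206 also without mouse 3.

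The difference of the lone WT C3H lung from the other WT strains followed that of the TG lungs in many genes, although the 2 comparisons share no mouse. Across all 13499 genes the 2 sets of differences correlated at r = 0.44 (Spearman's rho = 0.28), as a description of genes, which are not independent replicates and share the arrays. Of the 814 genes called in TG mice, 685 (84.2%) had the same sign in WT mice, against 59.0% of all genes. The WT difference was at least 50% of the TG difference in 414 of the 814. Among the 165 separated genes 154 had the same sign. Only 42 genes were called between WT mice, 23 higher and 19 lower (37 and 16 with each array centred on its median). Of these 42, 31 were called in the same direction in TG mice, which is 73.8% of the WT calls and 3.81% of the TG calls. The number called between WT mice was 66 without TG A/J mouse 3.

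Beyond the genes above, the WT calls that were repeated in TG mice held Glrb, a glycine receptor subunit gene, at 0.93 in TG and 1.11 in WT mice, and the alkaline phosphatase gene Alpl at 0.76 and 0.94. Htr2b, a serotonin receptor gene, read 9.10 in WT C3H against 6.67 to 8.22, and 8.51, 8.06 and 8.16 in TG C3H against 6.64, 7.31 and 8.08 in the other TG lungs. The TG values of C3H thus overlapped those of 129, and the TG minus WT difference of Htr2b in C3H was -0.85 (limma adjusted p = 0.034). C4b, a complement component, read 9.13, 8.96 and 9.18 in TG C3H and 9.15 in WT C3H. The only TG lungs near it were the 3 of AKR/J, at 9.16 to 9.57, and the remaining TG lungs were at 10.70 to 11.32, so C4b was called lower, at -1.59, but was not separated. Mrtfb, a coactivator of serum response factor, was lower in both genotypes, at -1.14 in WT and -0.50 in TG mice. Over the alternative settings its WT difference ran from -1.2 to -0.47 and kept its call. The stress-response gene Atf3 was 1.16 higher in WT C3H (9.96 against 8.67 to 9.21), while its TG difference of 0.27 ± 0.12 did not pass (limma adjusted p = 0.22).

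**Figure D2:**
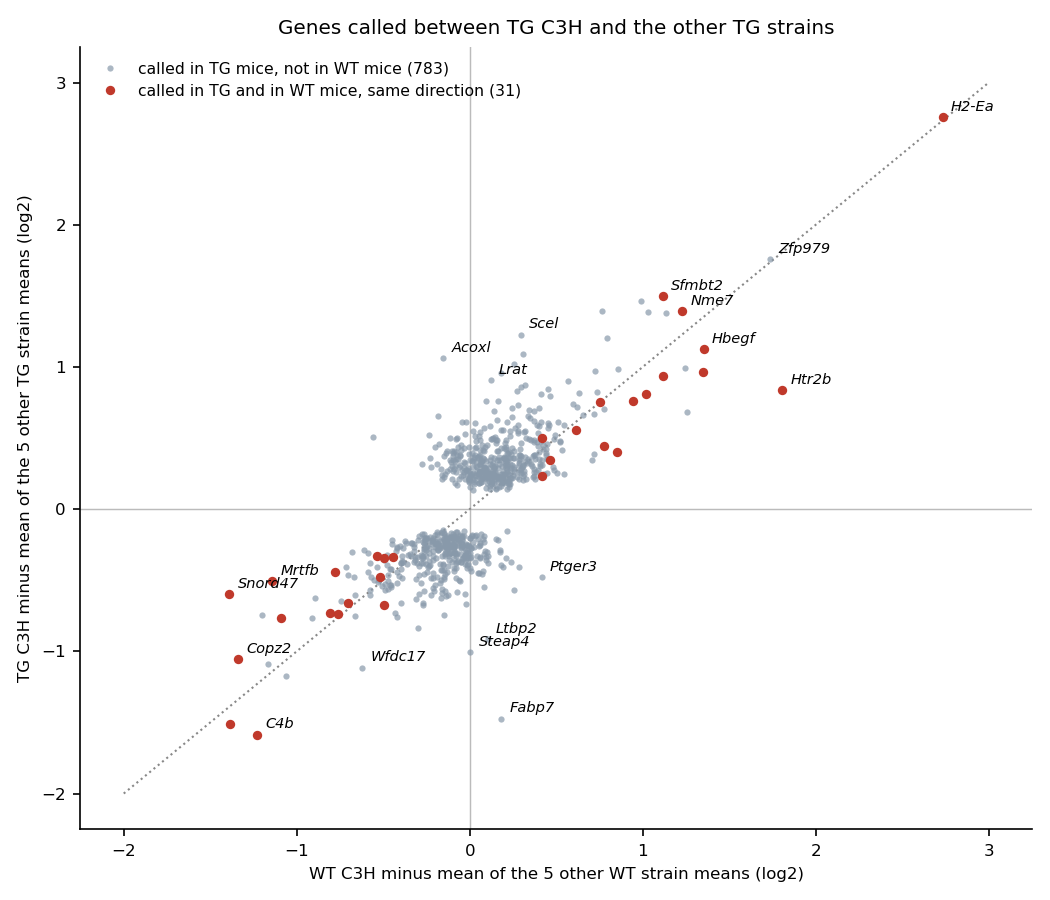
Each point is 1 of the 814 genes called between TG C3H and the other TG strains. The vertical axis is that log2 difference and the horizontal axis the log2 difference of the WT C3H lung from the other WT strains, with a dotted line where they are equal. The 31 red genes, called in both genotypes in the same direction, run from C4b and Copz2 to H2-Ea. Not all lie on the line: Htr2b and Mrtfb differ more in WT mice, and C4b more in TG mice. Fabp7, Steap4 and Ltbp2 lie low near a WT difference of 0.

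In 251 of the 814 genes (30.8%) the WT difference was under 25% of the TG difference or had the opposite sign. By arithmetic, the TG difference of a gene is its WT difference plus the C3H transgene difference minus that of the other strains, so the 129 genes of opposite sign in WT mice differ more in transgene effect than between TG mice. None of the 814 was called for that difference of transgene differences, so the genes that follow are described by their values. In 192 of the 251, the other strains had a called change with the transgene, opposite in sign to the TG difference. The choice of these genes pushes that count upward, because the other TG means enter both differences. Over the 814 genes such a change was found in 434, and 27.5% of all genes had a called change in the other strains.

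Fabp7, a fatty acid binding protein, read 7.96, 9.06 and 8.24 in TG C3H against 8.98, 9.94 and 10.60 in the other TG lungs, and 7.22 against 6.66 to 7.42 in WT lungs. It was 2.85 higher with the transgene across the other strains and 1.2 higher in C3H, the latter not called. Only C3H mouse 2 reached the 2 lowest of the other TG lungs. Its TG difference of -1.47 ± 0.27 (limma adjusted p = 0.0045) was not called without C3H mouse 1, and the adjusted p of the difference in transgene effect was 0.67 (limma). Steap4, a metalloreductase gene, read 8.85, 9.34 and 8.60 in TG C3H against 9.14, 9.93 and 10.65, and 8.77 against 8.61 to 8.98 in WT lungs. Steap4 in C3H mice 1 and 3 was within 0.1 of the WT C3H lung or below it, and the 2 TG C57 lungs were lowest of the other TG lungs. The TG difference was -1.01 ± 0.15 (limma adjusted p = 0.00086). Ltbp2, which encodes a matrix protein of the latent TGF-β binding protein family, read 10.45, 10.83 and 10.50 in TG C3H against 10.73, 11.29 and 12.57. C3H had the lowest mean of the 6 strains, with a TG difference of -0.91 ± 0.13 (limma adjusted p = 0.00046), and in WT mice it was in the range of the others, 9.96 against 9.63 to 10.12.

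In the other direction, Acoxl, an acyl-CoA oxidase-like gene, read 9.10, 8.65 and 9.94 in TG C3H against 7.47, 8.32 and 9.07. Its TG minus WT difference was -2.38 across the other strains and -1.17 in C3H, and its call between TG mice (1.06 ± 0.27, limma adjusted p = 0.027) was lost without C3H mouse 1, without mouse 3 and without the C57 strain. Cdk19, a kinase of the Mediator complex chosen after its values were seen, read 11.68, 12.18 and 11.80 against 10.43, 10.92 and 11.99. WT C3H was at 10.77, within 10.50 to 11.08, and Cdk19 was 1.12 higher in TG than WT C3H lungs (limma adjusted p = 0.025) and 0.46 higher across the other strains. Arfgef2, a vesicle-traffic exchange factor gene also chosen after its values were seen, read 10.14, 10.22 and 10.09 in TG C3H, below the 10.39 to 10.87 of all other TG lungs. The WT C3H lung was at 10.61, within 10.41 to 10.74, and the difference in transgene effect was -0.53 (limma adjusted p = 0.19).

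Within C3H, 111 genes (0.822%) were called between the 3 TG lungs and the WT lung, 66 higher (0.489%) and 45 lower (0.333%), against 3706 (27.5%) in the mean of the 5 other strains. With each array centred on its median the C3H calls were 52 higher and 61 lower. The larger count in the other strains comes with 14 TG and 6 WT mice behind it. Without C3H mouse 1 the C3H count was 49, and without mouse 2 it was 16. Of the 111 genes, 98 were also called in the other strains, and of the 3706 genes 3106 (83.8%) had the same sign in C3H, against 64.9% of all genes. The 66 genes called with at least a 2-fold change in the other strains all had the same sign in C3H, with a median size of 0.85 in C3H and 1.21 in the others. The difference was smaller in C3H in 81.9% of the 3706 genes, a share that the choice of genes by their value in the other strains pushes upward. Both sets of transgene differences, which share no mouse, correlated at r = 0.63 across all genes.

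The largest called rises in C3H were in Ntrk2 (2.03), Lrg1 (1.70) and Itgbl1 (1.48). Without C3H mouse 2 the calls of Ntrk2 and Itgbl1 were lost, and that of Itgbl1 also without mouse 3. Among the largest falls were Igfbp3 (-1.71), a call lost without mouse 2 or mouse 3, and Esm1 (-1.45). Lcn2, a siderophore-binding protein gene, read 13.11, 13.18 and 12.74 in TG C3H and 11.59 in WT C3H. That difference of 1.43 (limma adjusted p = 0.00021) stood beside 1.22 in the other strains. Tgm1, a transglutaminase of the cornified envelope, was 1.24 higher in C3H and 1.41 higher in the others. Igf1, a growth factor made by macrophages and fibroblasts, was 9.99, 10.28 and 9.79 against 8.80 in the WT C3H lung, a difference of 1.22 (limma adjusted p = 0.027), which was lost without C3H mouse 1 or mouse 2. It rose by 1.70 in the other strains, and TG C3H lay below the mean of the other TG strains, at -0.61. C3H was not the lowest strain, with TG AKR/J at 9.57 to 9.87. The call of Igf1 between TG mice was lost without C3H mouse 1, without mouse 3 and without the C57 strain. Igfbp6, an IGF binding protein gene, fell in C3H (-1.22), a call lost without mouse 2 or mouse 3, and in the other strains (-1.02).

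**Figure D3:**
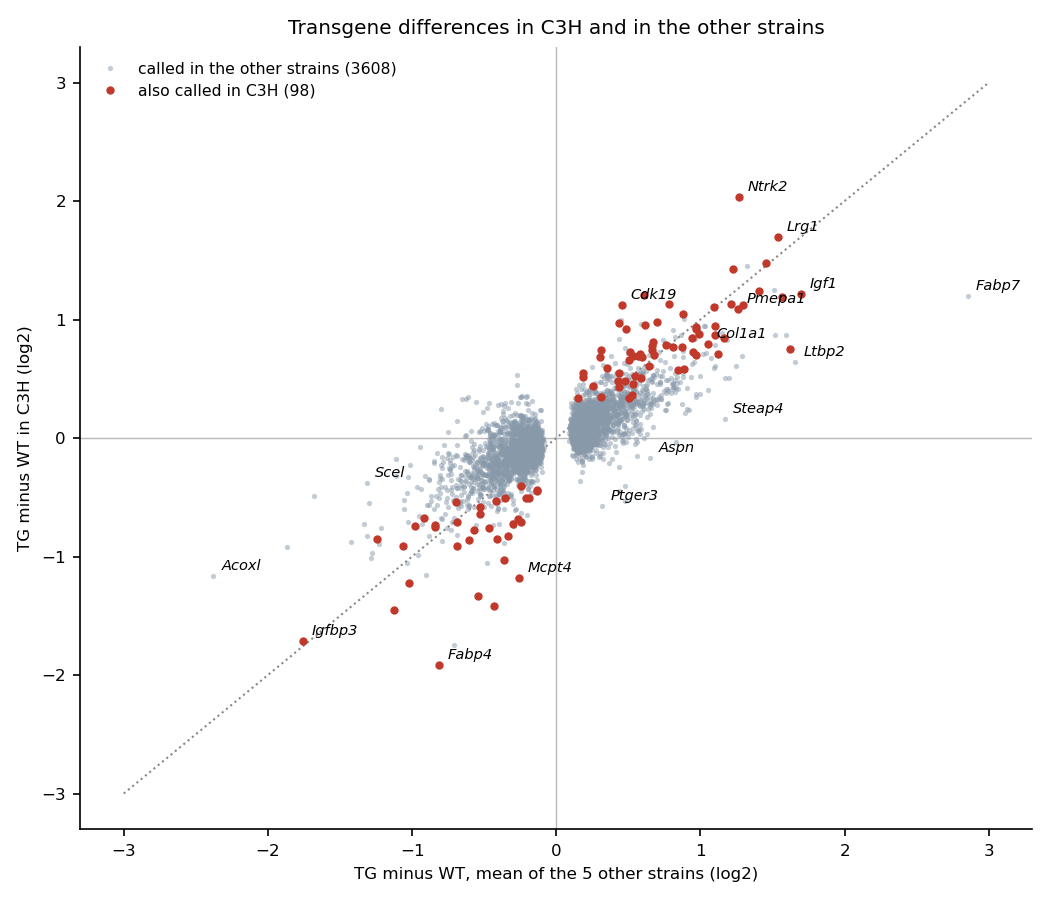
Each point is 1 of the 3706 genes called for TG minus WT in the mean of the 5 other strains (horizontal axis, log2), with its TG minus WT difference in C3H on the vertical axis (log2). The 98 red genes were also called in C3H, and the dotted line marks equal differences. Fabp7, Ltbp2 and Steap4 lie below the line, Ntrk2 and Cdk19 above it, and Ptger3 and Aspn have opposite signs on the axes.

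A test of the difference between the C3H transgene effect and the mean effect of the other strains called 1 gene (0.00741%), and 835 genes had an unadjusted p under 0.05 (limma). The called gene was Mcpt4, a chymase of connective-tissue mast cells. It read 5.98, 5.98 and 5.96 in TG C3H and 5.70, 5.94 and 6.17 in the other TG lungs, so TG C3H lay inside the others. The WT C3H lung was at 7.16, above every other mouse, against 6.02 to 6.38 in the other WT lungs. The C3H transgene difference was -1.19 and that of the other strains -0.26, which differ by -0.93 (limma adjusted p = 0.00011). The result therefore rests on 1 lung. Mcpt4 is a dim gene, and with genes of a mean under 6.77 left out the test called 0 genes. The count of calls in this test was 2 without TG AKR/J mouse 2 or TG Balb/cJ mouse 3 and 3 without WT C57 mouse 2.

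That WT C3H lung was high in other genes of the same tissues. Carboxypeptidase Cpa3, also of mast cells, read 8.14 against 6.64 to 7.90 in the other WT lungs, and 6.93, 6.89 and 6.61 in TG C3H. The mast cell list (13 genes measured) averaged 6.96 in the WT C3H lung, 6.68 to 6.83 in the other WT lungs and 6.61 to 6.67 in TG C3H. Its median WT difference was only 0.11, with 9 members above the other WT mean, 4 below it and 1 called. Hdc, a member of the list, read 9.61 in the WT C3H lung, below the 9.73 to 10.38 of the other WT lungs. Of the 13 measured adipose tissue markers, 3 were called higher in the WT C3H lung, and all 13 were above the other WT mean, with a median difference of 0.67. The list averaged 8.71 in that lung, 7.73 to 8.31 in the other WT lungs and 7.77 to 7.83 in TG C3H. Fabp4, a lipid chaperone of fat cells and endothelium, was 10.46 in the WT C3H lung and 8.69, 8.29 and 8.66 in TG C3H (-1.91, limma adjusted p = 0.028, lost without mouse 2). Aqp7, a glycerol channel of fat cells, was 8.29 against 6.90, 6.83 and 6.91 (-1.41, limma adjusted p = 0.011), and Cidea, a lipid droplet gene, 7.12 against 6.16, 6.09 and 6.16. Among TG mice, 0 of 13 adipose and 0 of 13 mast cell markers were called. The part that the makeup of this WT lung had in the C3H transgene differences was not tested.

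Gene lists were read by the count of members called and the median difference, beside 3.31% of genes called higher and 2.72% lower and a median of -0.01 over all genes. The lists and their members were chosen with earlier results of these data known. Their shares therefore describe the lists and do not test them against all genes. Differences are from the mean of the 5 other strain means, so a list can lie below that mean and above some strains. In whole-lobe RNA, fewer cells of a type and less RNA per cell cannot be told apart. Collagens and their partners had 6 of 27 measured genes called lower (22.2%) and 0 higher, with a median of -0.10 among TG and 0.05 among WT mice. C3H was not the lowest strain: the list level was 9.69 to 9.83 in TG C3H, 9.63 to 9.82 in TG AKR/J and 9.67 to 9.80 in TG Balb/cJ, and up to 10.11 in TG C57. Col1a1, a chain of the main fibrillar collagen, read 11.04, 11.24 and 11.16 in TG C3H against 11.09, 11.36 and 12.24 in the other TG lungs. The C3H lungs overlapped the lower part of that range, and the difference was -0.43 ± 0.09 (limma adjusted p = 0.0082). Col1a1 was 0.79 higher in TG than WT C3H lungs (limma adjusted p = 0.03) and 1.05 higher in the other strains. Fn1, fibronectin, was at -0.35 (13.12 to 13.33 in TG C3H, above the 12.88 to 13.04 of TG AKR/J) and the lysyl hydroxylase Plod1 at -0.39, and Col5a2, Col6a1 and Col6a2 at -0.32, -0.25 and -0.20. Versican (Vcan), at -0.50 ± 0.17, did not pass (limma adjusted p = 0.10). Without C3H mouse 1 only 1 collagen-list gene was called and without mouse 3 there were 2, and Col1a1 was lost without mouse 1 and without the C57 strain.

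Targets of TGF-β and matricellular genes gave the same count, 6 of 36 lower (16.7%) and 0 higher, with a median of -0.09. Beside Ltbp2 and Igf1, the lower genes were Pmepa1, an inhibitor of Smad signalling that TGF-β induces (-0.46 ± 0.09), Fstl1 (-0.42), Fstl3 (-0.24), a binder of activin, and Inhba, the activin A chain (-0.33). Pmepa1 read 11.81, 12.05 and 11.67 in TG C3H against 11.82, 12.28 and 12.66 in the other TG lungs, and it was 1.09 higher in TG than WT C3H lungs (limma adjusted p = 0.0078). C3H thus had the lowest TG mean for Pmepa1, although it did change with the transgene. Only 1 of the 36 was called without C3H mouse 1 or without mouse 3. Adamts4 was the 1 of 27 proteases and inhibitors called (-0.35, lost without mouse 1 or mouse 2). The matrix metalloproteinase Mmp14 was at -0.27 ± 0.11 (limma adjusted p = 0.20).

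Macrophage genes were below the mean of the other strains, with 6 of 21 monocyte and macrophage markers called lower (28.6%) and 0 higher (median -0.20 in TG, 0.01 in WT mice). The complement C1q chains C1qa (-0.56 ± 0.09), C1qb (-0.46) and C1qc (-0.52), the membrane proteins Ms4a7 (-0.56) and Ms4a6d (-0.57) and the inhibitory Fc receptor Fcgr2b (-0.38) made up the 6. C1qa read 9.04, 9.11 and 8.94 in TG C3H against 8.81, 9.52 and 10.54. C3H was not the lowest strain: the list averaged 8.95 to 9.18 in TG C3H, 8.80 to 8.90 in TG AKR/J and up to 9.77 in TG A/J. Without C3H mouse 1 or mouse 3 the calls in this list were 2. Of 9 alveolar macrophage markers 2 were called higher, Krt79 (1.38 ± 0.35) and carbonic anhydrase Car4 (0.30), and both calls were lost without mouse 2 or mouse 3. Complement and coagulation had 5 of 34 lower (the C1q chains, C4a and C4b) and 2 higher (Masp1 and Plau, the urokinase gene), and 4 calls were made without mouse 3.

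Markers of alveolar type 1 cells, the flat cells of gas exchange, stood above the mean of the other strains, with 8 of 15 called higher (53.3%) and 0 lower. The median was 0.18 in TG and 0.22 in WT mice, and 14 of 15 were positive in each. Igfbp2, an IGF binding protein, read 11.18, 10.64 and 10.88 in TG C3H against 8.63, 9.31 and 10.75 (1.38 ± 0.20, limma adjusted p = 0.0008), and 10.77 in WT C3H against 9.36 to 10.10. Mouse 2 of C3H overlapped the highest AKR/J lung and the WT value was separated. Spock2, a matrix proteoglycan, was 0.50 ± 0.05 higher in TG and 0.42 higher in WT C3H and was called in both. Pdpn (podoplanin) was at 0.35, Ager (the receptor RAGE) at 0.30 and Clic5 at 0.29. The list level of 11.63 to 11.80 in TG C3H was matched by 11.80 to 11.85 in TG AKR/J, while the other 4 strains were at 11.18 to 11.48. Without C3H mouse 1 or mouse 3, 5 of the 15 were called. Surfactant and other type 2 markers had 0 of 17 called.

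Endothelial markers had 9 of 24 called higher (37.5%) and 0 lower in TG C3H (median 0.16 in TG, 0.07 in WT mice). Among the 9, Pdpn is also counted in the alveolar type 1 list and Car4 in the alveolar macrophage list. The tight junction gene Cldn5 read 13.12, 12.97 and 12.98 against 12.39, 12.76 and 12.91 and was fully separated (0.36 ± 0.06, limma adjusted p = 0.0032). The endothelin receptor Ednrb was at 0.56, the transcription factor Sox17 at 0.53 and the arterial connexin Gja5 at 0.59. The TG minus WT difference of Ednrb was -0.87 in the other strains and -0.49 in C3H, the latter not called. The list level in TG C3H, 10.44 to 10.55, was inside the 10.16 to 10.58 of the other TG lungs, and 3 of the 24 were called without C3H mouse 1 and 4 without mouse 3. In the fibroblast, smooth muscle and pericyte list 2 of 28 were higher (Htr2b and Vipr2, the VIP receptor, 0.86 ± 0.10) and 4 lower, namely Wnt5a (-0.57), the stem-cell receptor Lgr6 (-0.59), Cthrc1 (-0.40) and Aspn.

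**Figure D4:**
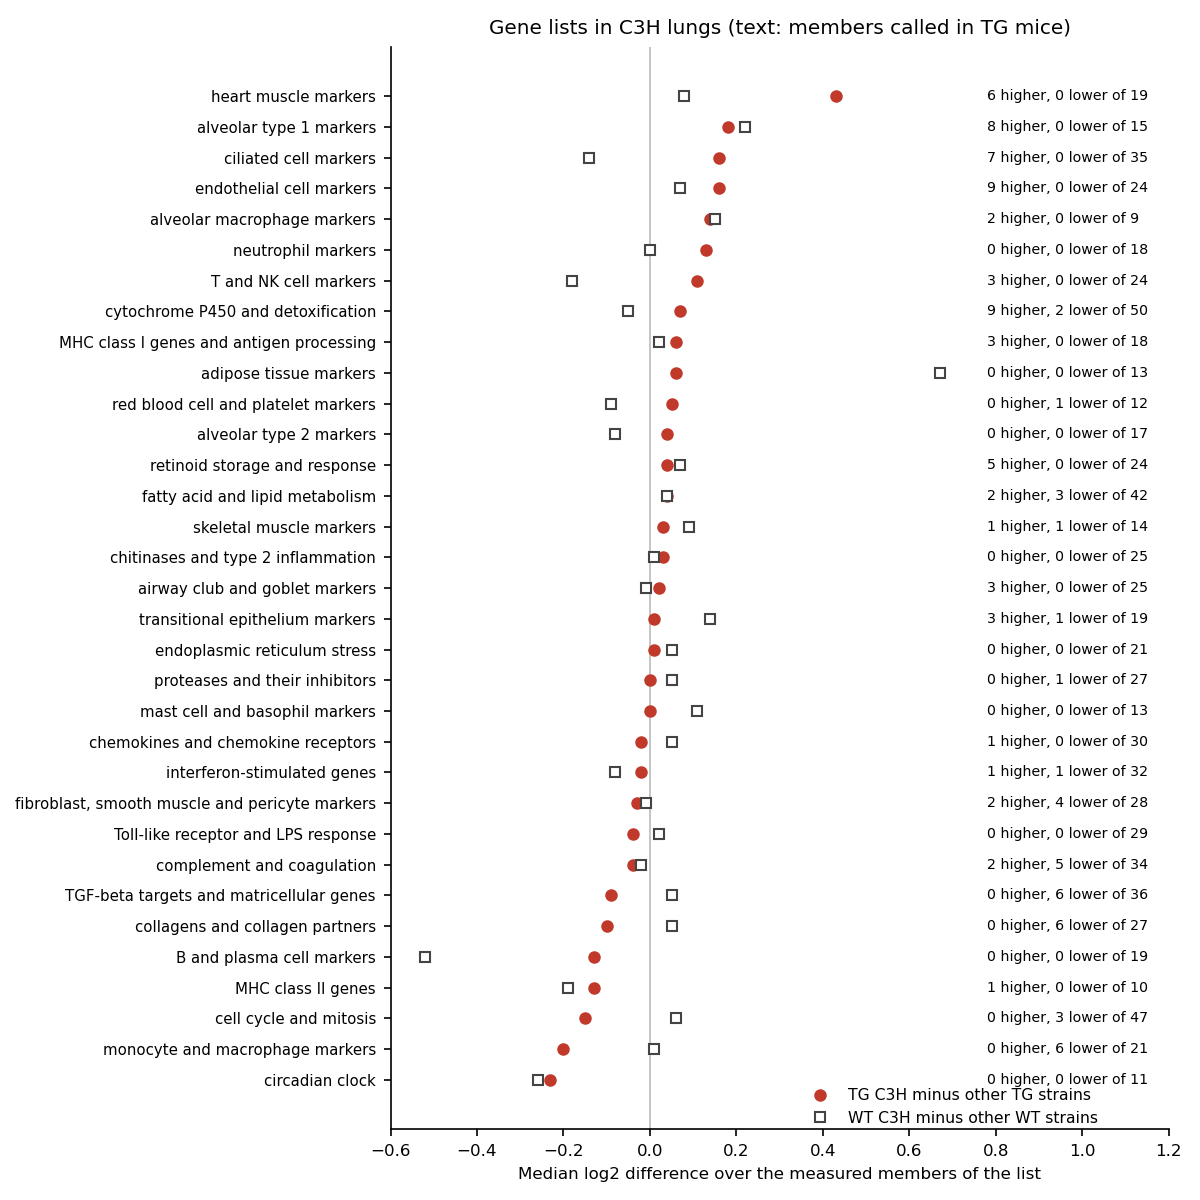
Median log2 difference (horizontal axis) over the measured members of 33 gene lists (vertical axis), for TG C3H against the other TG strains (filled circles) and WT C3H against the other WT strains (open squares). The text at the right gives the members called higher and lower in TG mice. Heart muscle, alveolar type 1, ciliated and endothelial markers are at the top, macrophage and clock genes at the bottom, and the adipose and B cell lists stand apart in the WT lung.

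Ciliated cell markers had 7 of 35 called higher (20%) and 0 lower, among them the dynein genes Dnah5 (0.35), Dnah9 (0.33) and Dnaic1 (0.38). Sntn, an apical ciliary protein gene, read 10.47, 10.22 and 9.81 in TG C3H against 8.68, 9.29 and 10.34. Mouse 3 was lower than the other C3H mice in Sntn, and the list level was 8.68, 8.65 and 8.37 in C3H mice 1 to 3 against 8.13 to 8.67 in the other TG lungs. The WT difference had the other sign, with a median of -0.14, and none of the 7 calls was kept without mouse 1 or without mouse 2. The count was 15 without TG A/J mouse 3, 4 without 129 mouse 1, 129 mouse 3 or AKR/J mouse 2, and 3 without C57 mouse 1. Among club and goblet markers, 3 of 25 were higher: Gabrp (0.54), Aldh1a1 (0.44) and Sec14l3 (0.29). There was 1 call without C3H mouse 1, and Gabrp was lost without mouse 1 or mouse 2. The goblet cell gene Clca1 was at 11.70 in C3H mouse 2 and at 6.88 and 6.49 in the other C3H mice, and it also spanned 6.42 to 11.69 in the other TG lungs.

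Heart muscle markers had the highest median, 0.43, with 6 of 19 called higher (31.6%). The list level was 8.89, 8.92 and 9.45 in C3H mice 1 to 3, against 8.30 to 9.18 in the other TG lungs. Mouse 3 was the only TG lung above 9.18, and the WT lungs were at 9.52 in C3H and 8.99 to 9.56 in the others. Myoz2, a sarcomere protein gene, read 8.59, 8.54 and 9.43 in TG C3H against 7.18, 8.14 and 8.77. Without C3H mouse 3, 1 of the 19 was called. Cell cycle genes were below the mean of the other strains in 44 of 47, with a median of -0.15, and 3 (6.38%, against 2.72% of all genes called lower) were called, namely Bub1b, Kif2c and Uhrf1. The list level was 7.19 to 7.38 in TG C3H, below the 7.88 to 8.36 of TG A/J and the 7.61 and 7.72 of TG C57 and mostly above the 7.03 to 7.26 of the other 3 strains. The count ran from 0 without C3H mouse 1 or mouse 3 to 8 without A/J mouse 2. Clock genes were below that mean in 11 of 11, with a median of -0.23 and 0 called (limma). Their list level was 9.24 to 9.54 in TG C3H, 9.25 to 9.47 in TG A/J, 9.31 and 9.36 in TG C57 and 10.05 to 10.26 in TG AKR/J, and no source used here gives the hour of tissue collection.

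**Figure D5:**
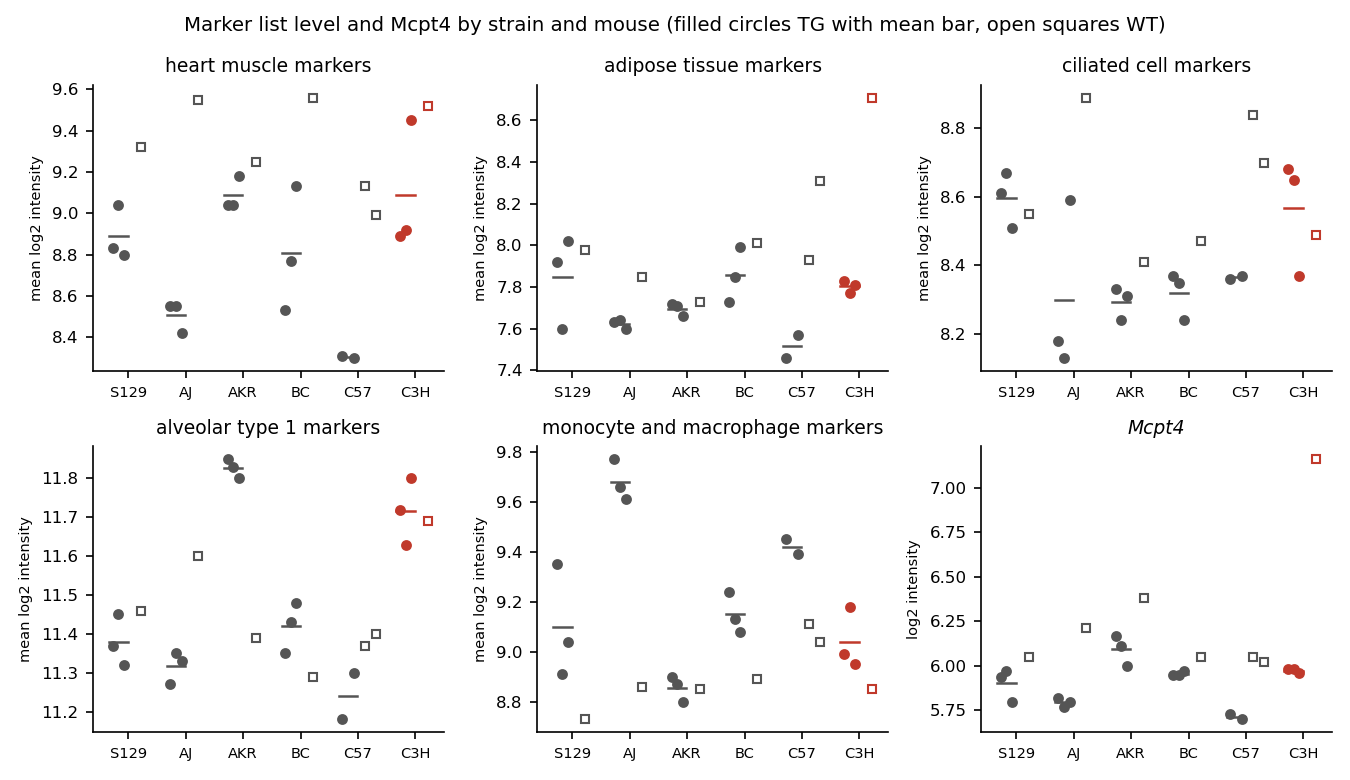
Mean log2 intensity of 5 marker lists and the log2 intensity of Mcpt4 (vertical axes) in each mouse, by strain label (horizontal axes). Filled circles are TG mice with a bar at their mean, open squares are WT mice, and C3H is red. C3H mouse 3 is the highest TG lung for heart muscle markers, the WT C3H lung is the highest of all lungs for adipose markers and Mcpt4, and C3H and AKR TG lungs are both high for alveolar type 1 markers.

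Enzymes of detoxification had 9 of 50 called higher (18%) and 2 lower in TG C3H. C3H was not the highest strain, with a list level of 9.10 to 9.13 beside 9.10 to 9.17 in TG AKR/J. The level was 9.04 to 9.12 in TG Balb/cJ, 8.86 to 8.97 in TG A/J and 8.86 and 8.92 in TG C57. Cyp4b1, a lung cytochrome P450, was at 0.43, the flavin monooxygenases Fmo1, Fmo2 and Fmo5 at 0.41, 0.40 and 0.24, and the glutathione transferases Gsta3, Gstm1 and Gstm3 at 0.52, 0.39 and 0.31. These glutathione transferases have close paralogs, so which copy was measured is uncertain. Aldh1a1 and Glo1 completed the 9, and the steroid hydroxylase Cyp7b1 and Mgst2 (-0.30) were the 2 lower. In the other strains the TG minus WT difference was -1.21 for Cyp4b1 and -0.76 for Fmo1. In C3H it was -0.75 and -0.50, neither of them called. There were 2 calls in this list without C3H mouse 1 and 3 without mouse 3. Retinoid genes had 5 of 24 higher (20.8%) and 0 lower: Lrat, which makes retinyl esters (0.91 ± 0.20), Rbp4, the retinol carrier (0.49), Aldh1a1, which makes retinoic acid, Dhrs3 (0.31) and the receptor Rarb (0.36). The retinoid list level of 8.59 to 8.63 in TG C3H was matched by 8.59 to 8.73 in TG 129. Without C3H mouse 1 there was 1 call among the retinoid genes and without mouse 3 there were 2. Lrat read 11.91, 11.81 and 12.02 in TG C3H against 9.25, 11.10 and 12.45, and its call was lost without mouse 1, without mouse 3 and without the C57 strain.

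Toll-like receptor and LPS response genes had 0 of 29 called, with Tlr4, the LPS receptor, at 8.76, 8.64 and 8.75 in TG C3H against 8.38, 8.74 and 9.29. Interferon-stimulated genes had 1 higher (Gbp7, 0.44) and 1 lower (Ifi213, -0.74) of 32 (6.25% in all, near the 6.03% of all genes), and neither call was kept without mouse 1 or without mouse 3. MHC class I and processing genes had 3 of 18 higher (16.7%), H2-Q4 (0.50), Psmb9 (0.25) and Tap2 (0.19), and none of the 3 was called without C3H mouse 1. T and NK cell markers had 3 of 24 higher (12.5%), Gzma (0.65), Tbx21 (0.49) and Il2rb (0.46), against 0 without mouse 1 and 6 without mouse 3. B and plasma cell markers had 0 of 19 called in either genotype, with medians of -0.13 in TG and -0.52 in WT mice. The chemokine receptor Cxcr1 (0.81 ± 0.17) was the 1 of 30 chemokine genes called, and it was lost without mouse 2 or mouse 3. No neutrophil, chitinase or endoplasmic reticulum stress gene of 18, 25 and 21 measured was called by limma at the adjusted threshold between TG mice, although 3 chitinase-list genes were called without C3H mouse 2 and 5 neutrophil markers without 129 mouse 1. That lung stood apart in the neutrophil list at 9.22, against 7.29 to 7.64 in the remaining other TG lungs and 7.64 to 7.90 in TG C3H. Lipid metabolism genes had 2 of 42 higher (Acoxl and Nceh1) and 3 lower (Fabp7, Elovl7 and Acadl), and 0 were called without mouse 1. Markers of transitional epithelium had 3 of 19 higher (Hbegf and the keratins Krt7 and Krt19) and 1 lower (Sfn). Of these 4 calls 2 were made without any 1 of the C3H mice, and the same count without 129 mouse 3, Balb/cJ mouse 1 or C57 mouse 1.

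Of 198 microRNA genes measured, 4 (2.02%) were called between TG C3H and the other TG strains, a share below the 6.03% of all genes. Mir26b read 7.40, 7.17 and 7.25 against 6.72, 6.89 and 7.29 and was higher by 0.31 ± 0.07 (limma adjusted p = 0.0097), and Mir146 was higher by 0.31. Mir194-1 was lower, at -0.29, and Mir133a-2 at -0.19. Mir146 (4.16 to 4.92 over all 24 mice) and Mir133a-2 (4.37 to 4.68) lay below the lower quartile of every array, which was at least 6.24, so their small differences are among dim values. The mature 5p strands of the 3 that have an entry in RefSeq (GRCm38.p6) are shown because an array probe set reports the gene and not the strand that acts, with the seed (bases 2 to 8) in capitals. They lie at chr1:74394324-74394344 (plus strand), chr11:43374435-43374456 (minus strand) and chr1:185313325-185313346 (plus strand).
mmu-miR-26b-5p: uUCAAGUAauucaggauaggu
mmu-miR-146a-5p: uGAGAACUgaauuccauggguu
mmu-miR-194-5p: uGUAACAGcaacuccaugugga
The 3 seeds differ, so no 2 of these microRNAs share a seed. All 4 calls were lost without C3H mouse 1, and those of Mir146, Mir194-1 and Mir133a-2 without mouse 3 also.

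The protocadherin β genes, adhesion molecules encoded side by side, were noticed after their values were seen. Of 22 measured, 21 were below the mean of the other TG strains, with a median of -0.20, and 10 were called lower. Over all 13499 genes, 7181 were below that mean and 2.72% were called lower. There were 5 calls without C3H mouse 1, and 6 without mouse 2 or without mouse 3. Pcdhb19 (-0.50 ± 0.07) read 7.07, 7.03 and 6.99 in TG C3H against 7.17, 7.43 and 7.92, and Pcdhb17 (-0.40 ± 0.04) read 6.95, 6.88 and 6.86 against 7.05, 7.18 and 7.78. Both were separated, but their WT C3H values of 7.14 and 6.88 were within the other WT lungs, and in WT mice 0 of the 22 were called, with a median of -0.05. Close paralogs can share probe sequence, so the 22 values are not independent readings. Zfp979, a zinc finger gene also chosen after its values were seen, was 7.89, 8.0 and 7.86 in TG C3H and 7.69 in WT C3H. TG A/J mouse 3 was at 8.24 while the other TG A/J mice were at 6.59 and 6.55, so Zfp979 was 1.76 ± 0.28 higher in C3H but not separated.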

How the data were processed

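Right lobes of the lungs of 24 mice gave total RNA, which was purified with Trizol-type reagent and a Qiagen kit, converted with the Ambion WT Expression kit and hybridised to whole-transcript arrays, per the labels' protocols. The deposited values were taken as log2 intensities from their range (3.41 to 14.75); the method of background correction and normalization and the log base are not stated in the labels. Of 25285 entries, 1 was incomplete and left out. Genes were named through the platform annotation, in which 14539 probe sets had 1 symbol, 781 several and 9964 were unnamed here, and Entrez identifiers matched RefSeq for 14480. The probe set of highest mean stood for each of 13499 genes, of which 590 had several. Of the 30 genes with several probe sets that were called between TG mice, 22 had the same sign in all of them. Genes of chromosomes 6 to 9 and X were hardly covered (88 genes in all).

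A linear model with 12 group means over all 24 mice was fitted with limma 3.58.1 in R 4.3.3 (lmFit and eBayes; 12 residual degrees of freedom, median residual SD 0.104), with Benjamini-Hochberg adjustment within each comparison and a threshold of 0.05. The comparisons were TG C3H minus the mean of the 5 other TG strain means, the same in WT mice, TG minus WT in C3H and in the other strains, and the difference of those 2 effects. Figures were drawn with matplotlib 3.10.9. The fit was tested on simulated data. The genes named were the 12 largest called differences each way without overlap between TG C3H and other TG mice. Named too were the 6 largest each way in the C3H transgene comparison and most of the 6 largest each way in the WT comparison. Calls of the difference of effects and up to 4 members per list with the largest TG difference were added. Others are said to be chosen after their values were seen or stand in a list's calls. The members and the 34 gene lists were chosen with earlier results of these data known. Sequences of microRNAs came from RefSeq GRCm38.p6. Alternatives were leaving out mice or strains, equal weights per mouse, a replicate block, other scalings, array weights, a filter on dim genes, the mean over probe sets and a stricter threshold.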

Additional observations from a re-analysis of the deposited data

Results flagged for a closer look

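The difference of the C3H transgene effect from the mean effect of the other strains passed the test for Mcpt4, at -0.93 (limma adjusted p = 0.00011). The 3 TG C3H lungs lay within the other TG lungs, and the WT C3H lung alone stood apart.

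For Aspn the C3H transgene difference was -0.17, opposite in sign to that of every other TG mouse from the WT mean of its own strain. Aspn read 9.93, 9.82 and 9.99 in TG C3H and 10.08 in WT C3H, the highest of the WT lungs (9.45 to 10.03 in the others). Aspn rose by 0.65 in the other strains. That pattern over mice was not tested in itself, and the difference of effects, -0.82, had an adjusted p of 0.62 (limma). Ptger3, a prostaglandin E2 receptor gene chosen after its values were seen, had a C3H difference of -0.57 in the same pattern, also not tested in itself. It read 7.01, 7.0 and 6.82 in TG C3H against 7.52 in WT C3H, and 7.03, 7.34 and 7.86 as lowest, median and highest in the other TG lungs. The WT C3H lung was again the highest WT lung, with 6.91 to 7.33 in the others. The adjusted p of the difference of effects of Ptger3 was 0.19 (limma). For Aspn and Ptger3 alike, the sign of the C3H difference rests on 1 WT lung. Over all genes, 50 had this pattern, 29 higher in C3H (0.215%) and 21 lower (0.156%).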

How the results depend on the processing

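The count of genes called between TG C3H and the other TG strains was 1295 with array weights and 277 at an adjusted p under 0.01, ran from 221 to 993 when 1 mouse was left out, and from 499 to 1061 when 1 other strain was. Between WT mice it was 70 with other mice weighted equally, 91 with array weights and 11 at 0.01, with 28 to 66 over mice left out. TG minus WT in C3H gave 11 at 0.01 and 16 to 137 over mice left out. The difference of effects gave 0 calls with dim genes left out and 1 to 3 over mice left out. With the replicate number as a block the counts were 678, 23 in WT mice and 31 for C3H TG minus WT; the numbers pair no mice in the labels, and same-numbered mice had a median correlation of deviations of -0.02 (-0.15 to 0.13). Of 7346 values of single genes, 6777 kept direction and side of the threshold, 456 lost the call, 88 gained it and 25 changed sign. The sign changes were all in TG C3H against the other TG strains, in uncalled genes. Over mice left out they ran from -0.03 to 0.84 for Chil4, -1.2 to 1.4 for Clca1, -0.09 to 0.55 for Tff2, -0.05 to 0.42 for Ighm and -0.01 to 0.06 for Ahr, and over mice or strains left out from -0.06 to 0.06 for Hc, -0.04 to 0.3 for Hdc, -0.12 to 0.02 for Tlr4, -0.02 to 0.31 for Ifi202b and -0.39 to 0.01 for Pcdhb9. Hc was at 0.01 with other mice weighted equally and with the block, and at 0 with arrays centred. The causes of these changes were not tested. Depth here is the number of arrays: each C3H transgene difference rests on 1 WT lung, whose spread was borrowed from the other groups.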

Other observations

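Near neighbours among the called genes without overlap are given as values, with no share for other genes beside them. Nrg2 (0.30), a neuregulin gene, lay near Hbegf (1.13), and Sstr2 (-0.45), a somatostatin receptor gene, near Cdc42ep4 (-0.50), each with 4 measured genes between. Phldb2 (-0.42) and Nectin3 (0.61), with 2 measured genes between them, differed in opposite directions.

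In Chil4, Clca1 and Tff2, genes of mucus cells and type 2 inflammation, C3H mouse 2 stood above the other C3H mice. Chil4 read 7.46 in that lung and 5.73 and 5.74 in the others, and Tff2 8.38 against 7.24 and 7.09.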
